A study of Mus musculus with 12 samples.

Results

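Transcripts of 42 genes of DNA replication were followed in 2 epithelial cell types of the mouse mammary gland. The genes were chosen by function, as the machinery that licenses replication origins, opens and copies DNA and supplies its building blocks, and all 42 were found among the 27179 genes of the deposited count table. The cells came from wild-type FVB/N females, with no treatment, and formed 6 groups of 2 libraries. Basal cells, which include the contractile myoepithelium around the ducts and alveoli, and luminal cells, which line the lumen and make milk, were each taken from virgin mice, from mice at day 18.5 of pregnancy and from mice at day 2 of lactation. They were flow-sorted populations, with 2 mice a stage, so an average over a population cannot tell fewer replicating cells from less RNA in each of them. The ages of the mice are not given.

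A cell that will divide first marks its origins. The origin recognition complex, CDC6 and CDT1 load the ring-shaped MCM helicase, which CDC45 and the GINS complex then activate in S phase. Primase and polymerase alpha lay down primers, polymerases epsilon and delta extend the leading and the lagging strand, and the clamp PCNA, put on DNA by its loader RFC, holds them to the template. RPA covers the exposed single strands, FEN1 and LIG1 finish the Okazaki fragments, and ribonucleotide reductase and thymidine enzymes make the deoxynucleotides. Many of these genes are textbook targets of E2F factors, which are held back by pocket proteins in resting cells. The alveolar epithelium grows mainly during pregnancy, and in the mouse some DNA synthesis goes on into early lactation.

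Library totals lay between 20015386 and 24723827 counts, and the members took between 14000 and 37155 counts of a library. The lowest member count in any library was 14, for Gins3. Levels are given as CPM, read counts set to a common library size, after TMM scaling, which sets most genes level between libraries, and a gene was called at an edgeR quasi-likelihood adjusted p below 0.05 over the 15969 genes tested. All 42 members passed the low-count filter. The scaling matters in luminal cells, because 8 milk protein genes made up 0.586% and 0.734% of the 2 virgin luminal libraries, 16.3% and 19.0% of the pregnant ones and 46.6% and 45.2% of the lactating ones, against at most 0.619% in any basal library. As a plain share of all counts the members held 0.182% and 0.161% of the virgin luminal libraries, 0.129% and 0.069% of the pregnant ones and 0.0923% and 0.0937% of the lactating ones. With the milk protein genes left out of the total, the shares were 0.183% and 0.163%, 0.154% and 0.0852%, and 0.173% and 0.171%. Luminal changes below are therefore changes relative to most other genes. Scaling by library size alone moved the median gene by -0.50, -0.85 and -1.36 on the log2 scale in luminal pregnant against virgin, lactating against pregnant and lactating against virgin cells, and by -0.15, -0.04 and -0.20 in the same basal comparisons. It also moved the share of all calls that were higher, to 9.56% against 49.0% under TMM in luminal lactating against pregnant cells and to 31.9% against 50% in basal lactating against virgin cells.

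In virgin and pregnant mice all 7 luminal markers were lower in basal than in luminal cells, and in lactating mice 5 of 7 were, with 2 uncalled. All 7 basal markers were higher in basal cells at every stage. Of all genes tested, 31.2%, 33.9% and 35.4% were lower in basal cells of virgin, pregnant and lactating mice. The shares higher were 31.5%, 35.9% and 39.2%. Luminal markers summed in luminal libraries to between 9700 and 10300 CPM in virgin, 8010 and 9420 CPM in pregnant and 3980 and 4530 CPM in lactating mice, and in basal libraries to between 1090 and 1700 CPM. Basal markers summed in luminal libraries to between 50.8 and 72.3 CPM in virgin, 310 and 373 CPM in pregnant and 74 and 83.9 CPM in lactating mice. Of the 7, 6 were called higher in pregnant than in virgin luminal cells, beside 21.8% of all genes. In basal libraries the basal markers summed to between 12200 and 36600 CPM. Leukocyte markers summed to between 0.873 and 5.09 CPM in any library, with Cd3e and Csf1r each at 0 in 1 basal library and Cd52 at 0 in 1 library of each cell type. Endothelial markers were 5 of 5 lower in pregnant than in virgin cells of both types, beside 14.4% of all genes in basal and 24.1% in luminal cells. In basal libraries they summed to between 157 and 258 CPM in virgin, 63.0 and 79.6 CPM in pregnant and 74.3 and 89.2 CPM in lactating mice. In luminal libraries the sums were between 35.5 and 55.8, 11.6 and 13.3, and 16.5 and 18.3 CPM. Fibroblast markers in basal libraries summed to between 151 and 219, 613 and 786, and 393 and 454 CPM at these stages, and in luminal libraries to between 222 and 377, 41.9 and 59.3, and 93.3 and 103 CPM. The part of these cells in the results was not tested. Basal and luminal libraries were run in different lanes, so cell type and lane cannot be told apart.

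The summed level of the 42 genes ended low in basal and high in luminal cells, on the TMM scale. Summed over the members, basal libraries held 1220 and 1160 CPM in virgin, 932 and 819 CPM in pregnant and 637 and 644 CPM in lactating mice, so that each stage lay below the one before it without overlap. For single genes such a separation was common. In basal cells 31.8% of all genes tested lay wholly below virgin in pregnancy, and 34.5% wholly below pregnancy at lactation. In luminal cells 35.1% and 36.2% lay wholly above at these steps. Luminal libraries held 1330 and 1180 CPM in virgin, 1280 and 748 CPM in pregnant and 1740 and 1750 CPM in lactating mice. The lactating luminal libraries were the highest of all, and the 2 pregnant ones were far apart. Of the lactating luminal sums Fen1, uncertain for the overlap given below, made up 189 and 252 CPM. In virgin luminal libraries it held 33.0 and 28.0 CPM. In luminal pregnant replicate 1 all 42 members were higher than in replicate 2, by a median ratio of 1.69. The same number was 34 of 42 with a median ratio of 1.15 in basal pregnant cells, and 35 of 42 with 1.11 in luminal virgin cells. By mean level, 28 members were highest in luminal lactating cells and 31 were lowest in basal lactating cells.

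**Figure D1:**
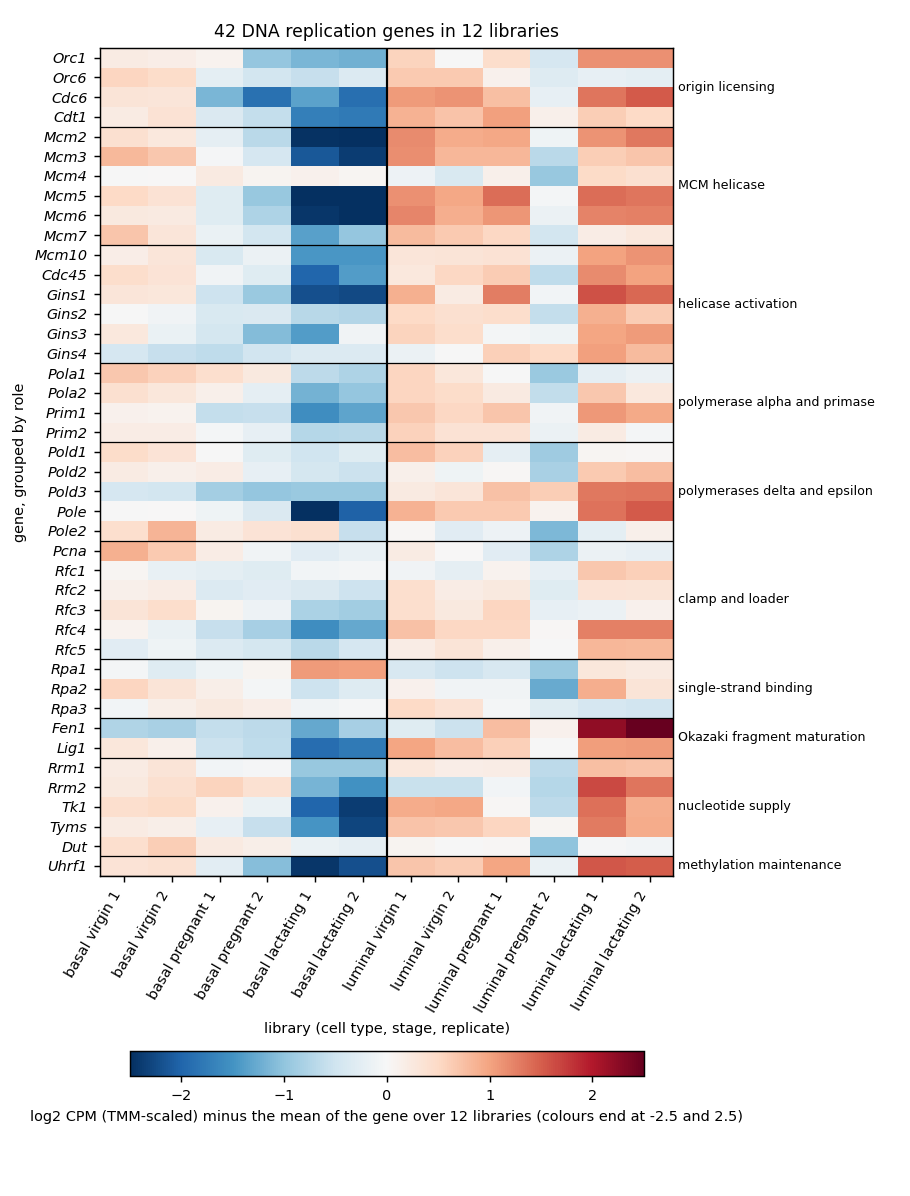
Levels of the 42 members in 12 libraries, as log2 CPM minus the mean of the gene over all libraries. Columns are libraries, basal left and luminal right, and rows are genes grouped by role. On this TMM scale most rows turn blue in the 2 basal lactating libraries and red in the 2 luminal lactating libraries, while Rpa1 is red in basal lactating cells.

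In basal cells the fall was spread over both steps. Between pregnant and virgin cells 0 members rose and 15 fell, where 15.6% and 14.4% of all genes tested were called higher and lower (30.0% either way), and the median member change was -0.47 on the log2 scale. At an unadjusted p below 0.05 the fit had 0 higher and 19 lower, and DESeq2 called 0 and 15. The count of 15 fell to 6 and 7 without basal virgin replicate 1 or 2, and to 5 without basal pregnant replicate 2. Between lactating and pregnant cells 1 member rose and 22 fell, beside 15.7% and 17.4% of all genes (33.1% either way), with a median of -0.76. Without basal lactating replicate 1 the fallen members numbered 14. Over the whole course, lactating against virgin, 1 member rose and 33 fell, beside 23.7% and 23.7% of all genes (47.5% either way), with a median of -1.27 where the median gene stood at 0.00. In this last comparison no call was lost under DESeq2 or the block for replicate number, which pairs nothing between stages. None was lost after subtracting an estimated luminal carry-over of 1.11% to 3.51% over the basal libraries. That share was at most 2.15% in these 2 groups, too little to undo such falls, so the subtraction is no check on them. The calls of Dut, Gins2, Orc1, Pold2, Rfc2 and Rpa2 were lost without basal lactating replicate 2.

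On the TMM scale most called changes of the members in luminal cells came at lactation. Both library size scalings put more of them in pregnancy. Library size alone called 32 members in pregnancy and 12 at lactation. Without the milk protein genes in the library size these were 25 and 16. Between pregnant and virgin cells 3 members rose and 9 fell, where 21.8% and 24.1% of all genes were called higher and lower (45.9% either way), so the share of fallen members was near that of all genes. Under library size alone 0 rose and 32 fell. This comparison hung on the pregnant libraries, with 2 higher and 30 lower without luminal pregnant replicate 1 and 5 higher and 4 lower without replicate 2, and 4 lower without luminal virgin replicate 1. Between lactating and pregnant cells 27 members rose and 0 fell, beside 23.7% and 24.6% of all genes (48.3% either way), with a median of 0.71. At an unadjusted p below 0.05 there were 29 and 0, and DESeq2 also called 29 and 0. Without luminal pregnant replicate 1 the risen members numbered 37, without replicate 2 they numbered 14 with 2 fallen, and without luminal lactating replicate 1 they numbered 15. Library size alone gave 2 higher, Fen1 and Rrm2, and 10 lower, and library size without the milk protein genes gave 15 higher and 1 lower. The median member stood above the median gene by 0.71 under TMM and by 0.69 under library size alone. A change of scaling moves all genes by about the same amount. The nearness of these values was thus fixed in advance and is no check on the calls.

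Lactating luminal cells were also compared with virgin ones. There 16 members were higher and 4 lower, beside 26.7% and 33.5% of all genes (60.2% either way), with a median of 0.38 where the median gene stood at -0.15. The higher members numbered 8 without luminal virgin replicate 2 and 10 without luminal lactating replicate 2, and the lower ones 2 without luminal virgin replicate 1 or either lactating library. Under library size alone 2 were higher, again Fen1 and Rrm2, and 36 lower, and under library size without the milk protein genes 4 were higher and 11 lower. The median member exceeded the median gene by 0.53 under all 3 scalings. This sameness again follows from how scaling works and is no check on the calls.

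The difference between the cell types grew with lactation. In virgin mice 3 members were higher and 12 lower in basal than in luminal cells, beside 31.5% and 31.2% of all genes (62.8% either way). These tests did not pair libraries by replicate number, and the block that does called 22 members in virgin mice. In pregnant mice 6 were higher and 16 lower, beside 35.9% and 33.9% of all genes (69.9% either way), and the block for replicate number gave 10 higher and 17 lower. Library size alone gave 10 higher and 13 lower there. The pregnant counts became 14 higher and 9 lower without luminal pregnant replicate 1, and 2 higher and 26 lower without replicate 2. In lactating mice 1 was higher and 33 lower in basal cells, beside 39.2% and 35.4% of all genes (74.6% either way), with a median of -1.65. Library size alone left 21 lower and 8 higher. The largest gap was that of Mcm5, 19.0-fold lower in basal than in luminal lactating cells.

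Whether the 2 cell types changed differently was tested as the luminal change minus the basal change, without pairing libraries by replicate number. From pregnancy to lactation the difference was called above 0 in 29 members and below 0 in 0, beside 18.3% and 18.0% of all genes (36.2% either way), with a median of 1.37. At an unadjusted p below 0.05 there were 34 and 0, and DESeq2 called 32 and 0. The block for replicate number, which pairs the cell types here, called 33 members. Without 1 library at a time the 29 ranged from 24 to 37, and library size alone gave 15 above and 4 below 0. For pregnant against virgin cells the difference was called above 0 in 2 members and below 0 in 1, beside 14.0% and 16.7% of all genes (30.7% either way). With the block for replicate number these were 8 above and 4 below. They became 2 and 12 without luminal pregnant replicate 1, and 11 and 0 without replicate 2.

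**Figure D2:**
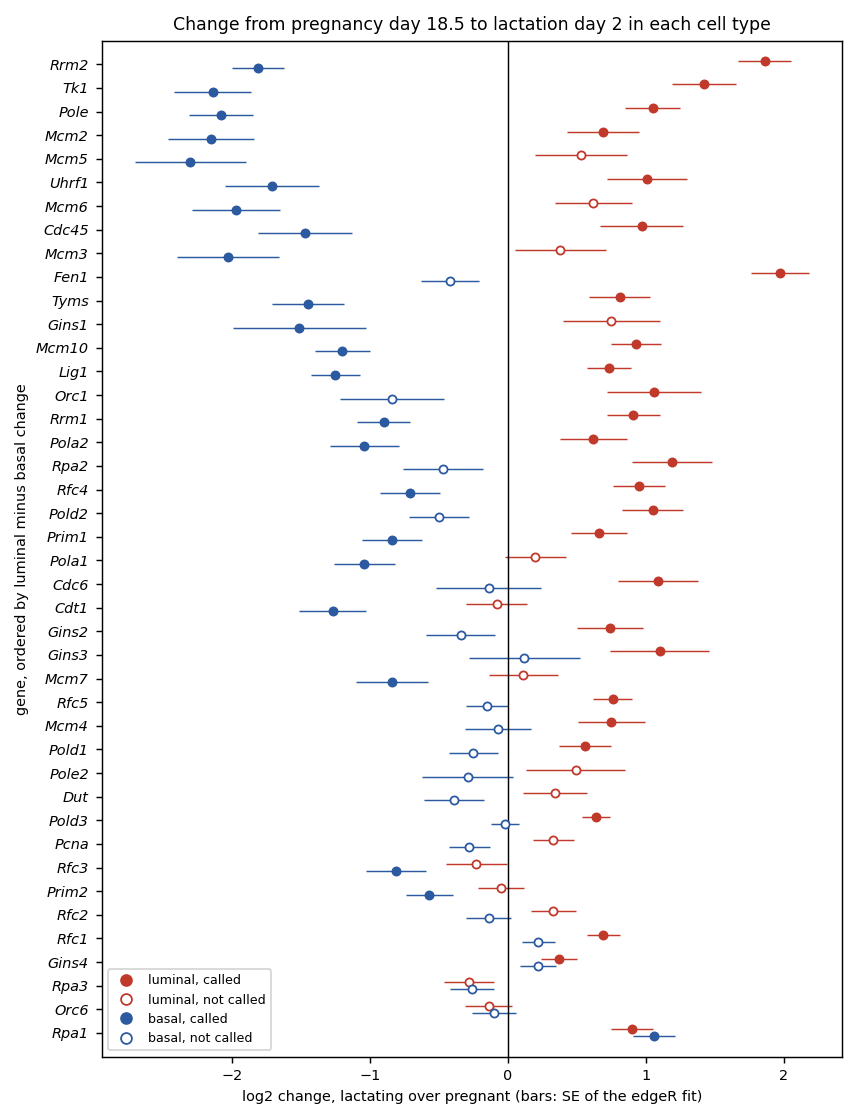
Log2 change of each member between lactating and pregnant cells, in luminal (red) and basal (blue) cells, with bars of 1 SE from the edgeR fit and filled points for called changes. Genes run by the luminal minus the basal change, from Rrm2 at 3.66 at the top to Rpa1 at -0.16 at the bottom. Scaling by library size alone would move the median gene of the luminal comparison by -0.85.

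The origin licensing genes Orc1, Orc6, Cdc6 and Cdt1 all fell in lactating against virgin basal cells, Orc1 without a call when basal lactating replicate 2 was left out. Cdc6, the loader that brings MCM rings to the origin, held 4.69 and 4.62 CPM in virgin, 1.70 and 1.03 CPM in pregnant and 1.48 and 1.01 CPM in lactating basal libraries. It thus reached its low level by late pregnancy, with a log2 change of -1.76 ± 0.32 (SE) against virgin cells (edgeR adjusted p = 0.00144), the largest fall of any member at that step. In luminal libraries Cdc6 held 7.85 and 8.17, 6.27 and 3.25, and 9.47 and 10.9 CPM at the 3 stages. Its luminal fall in pregnancy (-0.74 ± 0.28, adjusted p = 0.0435) was lost under 10 of 20 alternatives, among them leaving out luminal pregnant replicate 2. Its luminal rise at lactation was 1.09 ± 0.29 (adjusted p = 0.00696), a call lost without that library and under library size alone. Cdt1, its partner in loading, fell by 2.02 ± 0.24 on the log2 scale in lactating against virgin basal cells (adjusted p = 3.01e-05), to 5.83 and 5.61 CPM. Orc1, the large ATP-binding subunit of the recognition complex, rose at lactation in luminal cells by 1.06 ± 0.34 (adjusted p = 0.0197), a call lost without luminal pregnant replicate 2, without either luminal lactating library and under both library size scalings. Orc6 took the same course in both cell types, with 16.1 and 15.3 CPM in virgin, 9.37 and 8.16 CPM in pregnant and 7.53 and 8.83 CPM in lactating basal libraries, and 17.6 and 17.5, 12 and 8.92, and 9.63 and 9.47 CPM in luminal ones. Its fall against virgin cells was called at both later stages in both cell types, and the 2 cell types' lactation changes differed by -0.04 ± 0.23 (adjusted p = 0.935).

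Of the MCM helicase genes, Mcm5, Mcm3, Mcm2 and Mcm6 showed the deepest falls of all members between virgin and lactating basal cells. The MCM proteins join into a ring that holds each of them. Mcm5 (Entrez 17218, chromosome 8, 75109468 to 75128439, GRCm38.p6) held 46.2 and 42.3 CPM in virgin, 26.8 and 17.1 CPM in pregnant and 4.98 and 3.95 CPM in lactating basal libraries, with no overlap between stages. This was 9.90-fold lower in lactating than in virgin basal cells, a log2 change of -3.31 ± 0.39 (adjusted p = 3.41e-05) that lay between -3.52 and -3.15 under every alternative run. Mcm3 fell 7.91-fold, Mcm2 7.54-fold and Mcm6 6.6-fold over the same course, with log2 changes of -2.98 ± 0.37, -2.91 ± 0.31 and -2.72 ± 0.32. Mcm7 fell 3.17-fold, to 9.41 and 12.4 CPM in lactating against 39.1 and 29.9 CPM in virgin basal libraries. Between lactating and pregnant cells alone, Mcm5 changed by -2.30 ± 0.40, Mcm2 by -2.15 ± 0.31, Mcm3 by -2.03 ± 0.37 and Mcm6 by -1.97 ± 0.32, against -1.01, -0.77, -0.96 and -0.75 between pregnant and virgin cells, where Mcm6 was not called and the calls of the other 3 were lost without any of several single libraries, among them basal virgin replicate 1, virgin replicate 2 or pregnant replicate 2.

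Mcm4 did not follow the other 5. It held 69.4 and 70.7 CPM in virgin, 82.1 and 73.9 CPM in pregnant and 75.2 and 73.1 CPM in lactating basal libraries. Its log2 change between lactating and virgin basal cells was 0.08 ± 0.24 (adjusted p = 0.802), and it stayed uncalled between -0.13 and 0.10 under all 20 alternatives. Per kilobase of the deposited gene length, the highest of the 6 genes exceeded the lowest 2.34-fold in virgin, 4.45-fold in pregnant and 18.8-fold in lactating basal cells. In the last of these groups Mcm4 stood at 20.7 and Mcm2 at 1.10 CPM per kilobase. In luminal cells the same ratio was 2.20, 2.35 and 2.92. No exon of Mcm4 overlapped another annotated gene.

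Luminal MCM levels spread widely in pregnancy. Mcm5 held 72.7 and 64.1 CPM in virgin, 86.1 and 31.7 CPM in pregnant and 87.0 and 83.3 CPM in lactating luminal libraries, and Mcm6 held 97.7 and 78.2, 90.6 and 38.1, and 98.9 and 99.8 CPM. For both, pregnant replicate 1 lay with the other stages and replicate 2 alone was low. Mcm2 (0.69 ± 0.26, adjusted p = 0.0439) and Mcm4 (0.75 ± 0.24, adjusted p = 0.0213) were called higher at lactation, and neither call was kept without luminal pregnant replicate 2. Both were also lost without either luminal lactating library, under both library size scalings and in a fit of luminal cells alone. The Mcm2 call was lost as well without either basal virgin or either basal lactating library. Even so the luminal minus basal difference at lactation was called for Mcm2 (2.84 ± 0.41), Mcm5 (2.83 ± 0.51), Mcm6 (2.60 ± 0.43) and Mcm3 (2.40 ± 0.50).

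**Figure D3:**
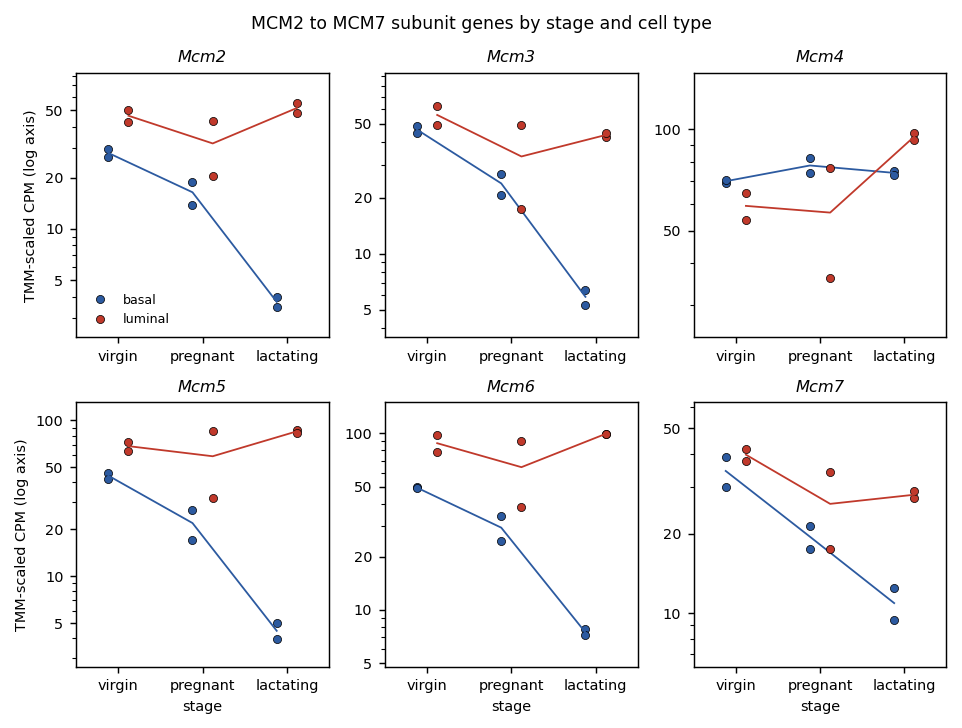
CPM of Mcm2 to Mcm7 on log axes in basal (blue) and luminal (red) libraries at 3 stages. Points are single libraries and lines join the means of 2. In basal cells the mean of 5 of the 6 genes is lower at each later stage while Mcm4 stays between 69.4 and 82.1 CPM.

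Promoter windows are shown for the 4 MCM genes with the deepest basal falls and for Rpa1, the 1 member that rose in basal lactating cells, all chosen after their values were seen. Each window is RefSeq sequence of GRCm38.p6 and runs 5′ to 3′ on the gene's strand over 300 bases, with the start of transcription at base 251. Capitals mark E2F letters, searched on both strands as TTTCCCGC, TTTGGCGC, TTTCGCGC and TTTGCCGC, which can overlap each other. The windows lie at chr1:20820263-20820562 (minus strand) for Mcm3, chr8:75109259-75109558 (plus) for Mcm5, chr1:128359656-128359955 (minus) for Mcm6, chr6:88898731-88899030 (minus) for Mcm2 and chr11:75348334-75348633 (minus) for Rpa1.
Mcm3: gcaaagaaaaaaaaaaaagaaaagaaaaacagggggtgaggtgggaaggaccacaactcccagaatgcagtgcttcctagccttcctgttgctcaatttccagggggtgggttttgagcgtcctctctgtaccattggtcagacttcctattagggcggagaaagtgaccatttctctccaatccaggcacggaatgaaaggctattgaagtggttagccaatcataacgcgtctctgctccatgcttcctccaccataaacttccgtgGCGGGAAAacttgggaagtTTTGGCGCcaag
Mcm5: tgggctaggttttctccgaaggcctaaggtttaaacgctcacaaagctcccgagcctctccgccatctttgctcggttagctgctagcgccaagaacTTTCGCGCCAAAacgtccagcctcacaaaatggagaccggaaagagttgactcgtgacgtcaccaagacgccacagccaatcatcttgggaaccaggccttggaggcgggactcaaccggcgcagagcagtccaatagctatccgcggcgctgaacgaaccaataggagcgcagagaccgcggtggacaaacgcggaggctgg
Mcm6: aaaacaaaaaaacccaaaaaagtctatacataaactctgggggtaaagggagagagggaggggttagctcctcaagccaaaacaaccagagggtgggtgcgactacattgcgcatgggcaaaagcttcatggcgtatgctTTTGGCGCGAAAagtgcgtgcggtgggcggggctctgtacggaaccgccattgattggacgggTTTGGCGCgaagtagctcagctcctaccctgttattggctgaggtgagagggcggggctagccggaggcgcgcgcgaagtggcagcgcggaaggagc
Mcm2: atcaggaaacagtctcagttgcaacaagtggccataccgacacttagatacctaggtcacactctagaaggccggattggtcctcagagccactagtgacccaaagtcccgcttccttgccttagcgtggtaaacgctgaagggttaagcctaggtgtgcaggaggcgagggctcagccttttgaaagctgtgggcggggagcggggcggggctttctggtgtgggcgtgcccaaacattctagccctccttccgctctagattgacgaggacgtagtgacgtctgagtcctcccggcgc
Rpa1: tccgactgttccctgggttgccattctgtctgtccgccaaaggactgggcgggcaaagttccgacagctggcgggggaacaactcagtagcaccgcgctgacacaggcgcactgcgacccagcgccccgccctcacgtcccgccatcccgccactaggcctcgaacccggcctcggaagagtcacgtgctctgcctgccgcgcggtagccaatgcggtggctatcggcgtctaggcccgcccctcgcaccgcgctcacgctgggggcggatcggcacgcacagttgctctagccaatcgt
The windows of Mcm3 and Mcm5 hold 2 matches each, at bases 270 and 289 and at bases 98 and 102, and that of Mcm6 holds 3, at bases 141, 145 and 204. The windows of Mcm2 and Rpa1 hold none of these letters. Mcm2, with no match, fell 7.54-fold, and the 3 genes with matches fell between 6.6-fold and 9.90-fold.

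Of the 42 members, 35 had at least 1 window, and 15 of these (42.9%) held the E2F letters. The share was 4.35% of the tested genes with a window and 2.60% of all 27025 genes with one. Among members that fell in lactating against virgin basal cells it was 13 of 28, and among those that did not it was 2 of 7, Pole2 and Gins3. CCAAT boxes, searched as CCAAT on both strands, stood in 62.9% of members with a window, against 42.4% of tested genes. The cell cycle letters called CHR, searched as TTTGAA and TTCGAA, stood in 20% of members and in 16.5% of tested genes. A match describes letters in a window and not a bound site.

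The genes that turn the loaded ring into a running helicase split in basal cells. Cdc45, the helicase's activating subunit, fell by 2.06 ± 0.34 on the log2 scale in lactating against virgin basal cells (adjusted p = 0.000332), to 1.97 and 2.94 CPM against 10.6 and 9.88 CPM. Mcm10, which helps the activated helicase start, fell by 1.70 ± 0.20. Gins1 fell by 2.51 ± 0.45 to 0.717 and 0.689 CPM, which rest on as few as 15 counts a library. Gins2 fell by 0.66 ± 0.25 (adjusted p = 0.0441), a call lost without any 1 of the 6 basal libraries. It was also lost without any 1 luminal library of virgin or lactating mice. Gins4 held 10.8 and 9.69, 9.30 and 10.3, and 11.4 and 11.3 CPM in basal libraries at the 3 stages, with a change of 0.15 ± 0.13 (adjusted p = 0.378) between lactating and virgin cells. Gins3 was uncalled at -0.66 ± 0.38. In luminal cells Gins4 rose at both steps on the TMM scale, with no overlap between stages. It held 13.0 and 14.3 CPM in virgin, 21.7 and 20.2 CPM in pregnant and 29.1 and 25 CPM in lactating luminal libraries. Both calls were lost under library size alone, where the lactation change was -0.49. The lactation call of Gins4 was also lost without luminal pregnant replicate 2 or lactating replicate 1. It was lost as well with no low-count filter and without milk protein genes in the library size. Its luminal minus basal difference was called in pregnancy (0.68 ± 0.18, adjusted p = 0.0144) and not at lactation (0.15 ± 0.19, adjusted p = 0.567). Gins2 is uncertain, since 67.3% of its exon bases overlap Gse1 on the other strand and the strand setting of the counting is not given. In luminal cells at lactation Gins2 had a log2 change of 0.74 ± 0.24 (adjusted p = 0.0232) and Gse1 one of -1.21. The Gins2 call was lost without luminal pregnant replicate 2 or lactating replicate 1, in a fit of luminal cells alone and under both library size scalings. Its sign turned under library size alone.

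All 4 genes of primase and polymerase alpha fell in basal cells. Prim1, the catalytic primase subunit, had a log2 change of -1.53 ± 0.21 in lactating against virgin cells, Pola2 of -1.41 ± 0.24, Pola1 of -1.33 ± 0.22 and Prim2 of -0.88 ± 0.17, and all 4 also fell between pregnancy and lactation. At that step the calls of Prim1, Prim2 and Pola2 were lost without basal pregnant replicate 1 or lactating replicate 1, and that of Prim2 also without lactating replicate 2. Pola1, the catalytic polymerase, held 37.1 and 34.9 CPM in virgin, 31.2 and 27.6 CPM in pregnant and 14.9 and 13.7 CPM in lactating basal libraries. In luminal libraries it held 33.9 and 28.5, 23.2 and 12.3, and 19.9 and 21.1 CPM. Luminal Pola1 was thus lower in pregnant than in virgin cells (-0.80 ± 0.21, adjusted p = 0.00781) and lower in lactating than in virgin cells (-0.60 ± 0.22, adjusted p = 0.0286). Both calls were lost without luminal virgin replicate 1, and the second also without either luminal lactating library and in a fit of luminal cells alone. Luminal Prim1 instead rose at lactation (0.66 ± 0.20, adjusted p = 0.015), a call lost without luminal pregnant replicate 2 or lactating replicate 1. It was also lost under both library size scalings, and the change turned negative under library size alone. The highest and lowest of the 4 genes per kilobase differed 2.42-fold in virgin, 3.54-fold in pregnant and 4.88-fold in lactating luminal cells.

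Among the extending polymerases the catalytic subunit of epsilon moved most. Pole held 17.5 and 17.7 CPM in virgin, 16.2 and 13.6 CPM in pregnant and 2.73 and 4.32 CPM in lactating basal libraries, against 32.0 and 27.7, 27.6 and 18.5, and 44.7 and 50.9 CPM in luminal ones. Its basal fall came at the second step (-2.08 ± 0.23, adjusted p = 7.2e-05), when its luminal level rose (1.05 ± 0.20, adjusted p = 0.000721). The call of the luminal rise was lost under library size alone. Pole2, the accessory subunit, was uncalled in every stage comparison of both cell types, and its basal lactating libraries, at 8.38 and 4.27 CPM, lay far apart. Of the delta subunits, Pold3 had its own pattern. It held 31.4 and 33.2 CPM in virgin, 44.9 and 41.3 CPM in pregnant and 66.6 and 68.1 CPM in lactating luminal libraries, and 20.1 and 19.6, 14.9 and 13.8, and 14.1 and 14.1 CPM in basal ones. Replicates of Pold3 lay close and stages did not overlap in luminal cells, whose change in pregnancy exceeded the basal one by 0.88 ± 0.14 (adjusted p = 0.000485). The luminal rise in pregnancy (0.42 ± 0.10) was -0.08 under library size alone. Pold1, the catalytic delta subunit, fell in luminal pregnancy by 1.19 ± 0.18 (adjusted p = 0.000184), to 15 and 9.56 CPM against 29.9 and 26.4 CPM in virgin cells. At lactation it held 18.3 and 17.9 CPM, still 0.63 ± 0.18 below virgin on the log2 scale, a call lost without luminal virgin replicate 1 or either lactating library.

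Pcna was the most abundant member per kilobase in every group but luminal lactating, where Fen1 reached 99.7 and Pcna 94.1 CPM per kilobase. It held 248 and 213 CPM in virgin, 152 and 127 CPM in pregnant and 111 and 119 CPM in lactating basal libraries, a fall called against virgin cells at both stages (-0.72 ± 0.15 and -1.0 ± 0.15) and not between pregnancy and lactation (-0.28 ± 0.15, adjusted p = 0.18). Luminal libraries held 156 and 136, 111 and 78.5, and 121 and 116 CPM. Basal cells therefore had more Pcna than luminal cells in virgin (0.66 ± 0.15) and pregnant mice (0.56 ± 0.15, uncalled without luminal pregnant replicate 2 or basal pregnant replicate 1), and in lactating mice the difference was -0.04 ± 0.15 (adjusted p = 0.807). Pcna has 2 named pseudogenes, and the handling of reads with several positions is not given. Among the loader genes Rfc4 and Rfc3 fell in lactating against virgin basal cells by 1.36 ± 0.21 and 1.2 ± 0.21 on the log2 scale, Rfc2 fell by 0.60 ± 0.16 (uncalled without basal lactating replicate 2), and Rfc5 was uncalled at -0.36 ± 0.15. Rfc1, the large subunit, had a change of 0.01 ± 0.12 (adjusted p = 0.963) with 46.2 and 39.5, 37.7 and 36.2, and 42.8 and 43.4 CPM at the 3 stages. In luminal cells Rfc1 rose at lactation, with 71.9 and 67.8 CPM in lactating against 47.6 and 39.0 CPM in pregnant libraries (0.69 ± 0.12, adjusted p = 0.000409). Under library size alone this change turned negative and the call was lost.

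The 3 RPA genes, whose products form 1 complex on single-stranded DNA, went separate ways. Rpa1, the large subunit (Entrez 68275, chromosome 11, 75300259 to 75348454), held 45.4 and 38.4 CPM in virgin, 44.0 and 49.4 CPM in pregnant and 98.9 and 96.1 CPM in lactating basal libraries. Both lactating libraries lay above every other library of either cell type. The log2 change against virgin basal cells was 1.22 ± 0.15 (adjusted p = 3.75e-05) and stayed called between 1.01 and 1.34 under all 20 alternatives. In luminal libraries it held 35.8 and 33.0, 35.6 and 24.8, and 57.5 and 55.2 CPM, a rise of 0.90 ± 0.15 at lactation (adjusted p = 0.000353) that was 0.03 and uncalled under library size alone. The 2 cell types' lactation changes differed by -0.16 ± 0.21 (adjusted p = 0.587). Rpa2 fell in lactating against virgin basal cells by 0.85 ± 0.28 and rose in luminal cells at lactation by 1.19 ± 0.29. The basal call was lost without basal virgin replicate 1 or either basal lactating library. The luminal one was lost without luminal lactating replicate 1 and under library size alone. Rpa3, the smallest subunit, held between 6.27 and 7.86 CPM in every basal library, with no stage comparison called. In luminal cells it fell in pregnancy by 0.61 ± 0.16, uncalled without luminal virgin replicate 1 or pregnant replicate 2, and stood at 4.97 and 4.77 CPM in lactating against 9.39 and 8.57 CPM in virgin libraries. Per kilobase the highest RPA gene exceeded the lowest 1.27-fold in virgin, 1.84-fold in pregnant and 5.32-fold in lactating basal cells.

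Fen1, the flap nuclease, had the steepest luminal rise. It held 33.0 and 28.0 CPM in virgin, 69.3 and 43.7 CPM in pregnant and 189 and 252 CPM in lactating luminal libraries, against 24.0 and 23.2, 26.9 and 25.8, and 16.7 and 22.8 CPM in basal ones. Luminal stages did not overlap, and no basal change was called. The luminal changes were 0.89 ± 0.21 in pregnancy (adjusted p = 0.00348) and 1.97 ± 0.21 at lactation (adjusted p = 8.63e-06), 7.24-fold in all. The call in pregnancy was lost without luminal pregnant replicate 1 and under library size alone. The lactation rise stayed called between 1.10 and 2.35 under all 20 alternatives. Fen1 is uncertain all the same, because 84.2% of its exon bases overlap Gm10143 or Tmem258, a gene of the other strand. Tmem258 rose as well, with 68.9 and 65.9 CPM in lactating against 41.8 and 47.6 CPM in pregnant luminal libraries (log2 change 0.59, adjusted p = 0.00035). Lig1, the ligase that seals the fragments, was uncalled between lactating and virgin luminal cells (0.16 ± 0.16, adjusted p = 0.417), where it held 60 and 51.6, 45.5 and 29.8, and 61.9 and 62.7 CPM. In basal cells Lig1 fell at both steps, 4.12-fold in all, with 36.9 and 32.9, 20.8 and 19.4, and 8.02 and 8.92 CPM.

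Of the nucleotide supply genes, 4 of 5 differed between the cell types in their lactation change. Rrm2, the subunit of ribonucleotide reductase whose level follows S phase (Entrez 20135, chromosome 12, 24708254 to 24714146), held 20.5 and 20.5 CPM in virgin, 28.8 and 18.6 CPM in pregnant and 95.4 and 76.6 CPM in lactating luminal libraries. Basal libraries held 35.7 and 40.2, 44.4 and 39.7, and 13.5 and 10.6 CPM. Rrm2 was higher in basal than in luminal cells of virgin (0.89 ± 0.18) and pregnant mice (0.83 ± 0.18), and lower in lactating mice (-2.84 ± 0.20). Its lactation change was 1.86 ± 0.19 in luminal and -1.81 ± 0.19 in basal cells, and the difference of 3.66 ± 0.27 (adjusted p = 2.03e-06) was the largest among the members. The partner subunit gene Rrm1 moved the same way by less, with 0.91 ± 0.19 in luminal and -0.90 ± 0.19 in basal cells. Its luminal call was lost under library size alone. The ratio of Rrm2 to Rrm1 per kilobase was 0.990 and 1.02, 1.48 and 1.30, and 0.831 and 0.657 in basal libraries, and 0.544 and 0.583, 0.815 and 0.934, and 1.81 and 1.5 in luminal ones. In lactating mice both luminal ratios lay above both basal ones, and at the earlier stages below them.

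Tk1, which salvages thymidine, held 8.34 and 8.66 CPM in virgin, 6.68 and 5.52 CPM in pregnant and 1.57 and 1.2 CPM in lactating basal libraries, and 11.8 and 12.1, 6.40 and 3.94, and 16.2 and 11.7 CPM in luminal ones. It had the largest luminal fall in pregnancy (-1.2 ± 0.23, adjusted p = 0.000904) and rose again at lactation (1.42 ± 0.23, adjusted p = 0.000295), while its basal level fell at lactation (-2.14 ± 0.28, adjusted p = 0.000185). The luminal rise lost its call under library size alone. Tyms, thymidylate synthase, with 1 named pseudogene, fell by 1.45 ± 0.26 on the log2 scale in basal cells at lactation and rose by 0.81 ± 0.22 in luminal cells. The luminal call was lost without luminal pregnant replicate 2 or lactating replicate 1 and under both library size scalings. Under library size alone the luminal change turned slightly negative. Dut, which keeps uracil out of DNA, moved least of the 5 in basal cells, with 21.0 and 20.3 CPM in lactating against 31.6 and 36.2 CPM in virgin basal libraries (-0.72 ± 0.22, adjusted p = 0.0189, lost without basal virgin replicate 2 or either lactating library) and no luminal call.

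**Figure D4:**
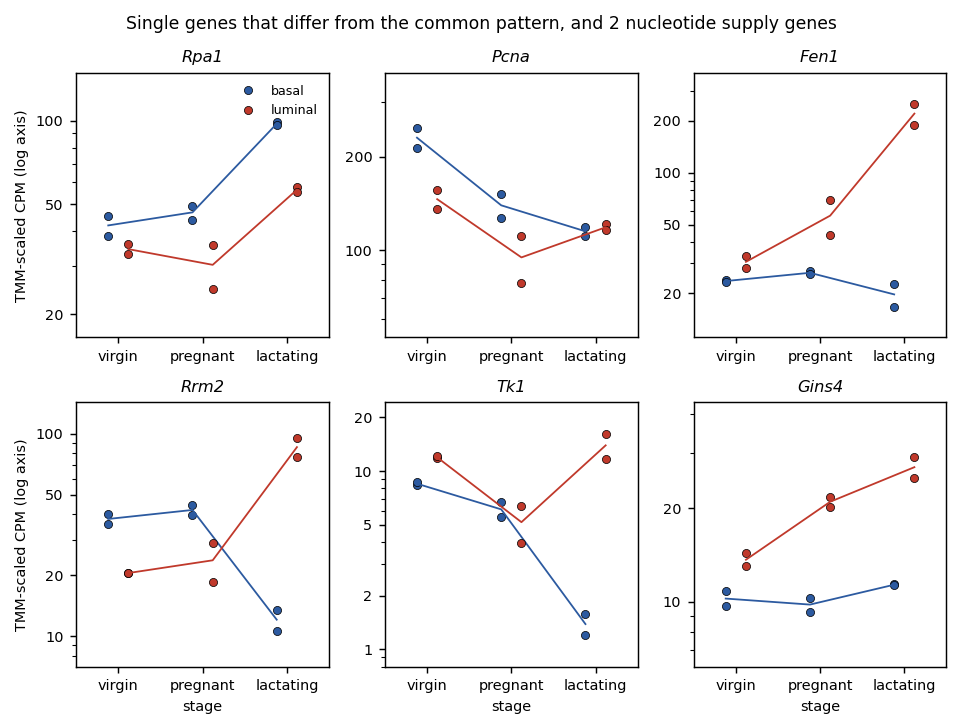
CPM on log axes of Rpa1, Pcna, Fen1, Rrm2, Tk1 and Gins4 in basal (blue) and luminal (red) libraries at 3 stages, with points for libraries and lines through the means of 2. On this TMM scale Rpa1 rises in both cell types at lactation (luminal 0.03 under library size alone), Rrm2 and Tk1 cross or part between them, and Fen1 reaches 189 and 252 CPM in luminal lactating libraries.

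Uhrf1, which brings DNA methyltransferase to newly copied DNA, ran closest to the other members. Its log2 level correlated at 0.982 (Pearson) with the median of the other 41 over the 12 libraries, a description over libraries that share cell type and stage. It held 30.7 and 31.8, 20.3 and 11.7, and 4.48 and 5.33 CPM in basal libraries at the 3 stages, and 39.6 and 37.7, 48.2 and 21.7, and 71.6 and 69.3 CPM in luminal ones. The lactation difference between the cell types was 2.71 ± 0.45 (adjusted p = 0.000516). By the same measure 21 members reached 0.9 or more, among them Prim1 at 0.975 and Lig1 at 0.972. Those below 0.3 numbered 6, namely Rpa1 at -0.532, Rpa3 at -0.132, Pole2 at 0.055, Mcm4 at 0.208, Pcna at 0.228 and Dut at 0.264.

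Other genes of the same processes were counted from lists that hold no member. Of all genes tested, 23.7% rose and 23.7% fell in lactating against virgin basal cells. In lactating against pregnant luminal cells these shares were 23.7% and 24.6%. Of 18 licensing and firing partners 2 rose and 12 fell in lactating against virgin basal cells, and 11 rose and 0 fell (also 11 and 0 at an unadjusted p below 0.05, and 0 lower by DESeq2) in lactating against pregnant luminal cells, where library size alone gave 1 and 8. Ticrr, which helps fire origins, held 16.3 and 15.5 CPM in lactating against 5.02 and 3.75 CPM in pregnant luminal libraries, and 0.359 and 0.322 CPM in lactating against 5.18 and 4.43 CPM in virgin basal libraries. Of 19 fork partners 1 rose and 15 fell in the basal comparison, and 12 rose and 1 fell in the luminal one, against 5 and 4 under library size alone. Pclaf, a PCNA-binding protein, had the largest basal fall (-4.99 ± 0.40, adjusted p = 1.7e-06), and Clspn, a checkpoint mediator at the fork, the largest luminal rise (2.19 ± 0.17, adjusted p = 6.72e-07). Dnmt1, the maintenance methyltransferase that UHRF1 recruits, was the 1 fork partner that fell in luminal cells at lactation (-0.41 ± 0.12, adjusted p = 0.0138). Of 12 nucleotide supply partners 1 rose and 7 fell in the basal comparison, the 1 being Rrm2b, a reductase subunit used outside S phase (0.80 ± 0.13, adjusted p = 0.000381), and 5 rose and 1 fell in the luminal one, against 0 and 6 under library size alone.

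E2F and pocket protein genes moved in both directions. Of 13, 2 rose and 8 fell in lactating against virgin basal cells, beside 23.7% and 23.7% of all genes. In lactating against pregnant luminal cells 6 rose and 5 fell, beside 23.7% and 24.6% of all genes, and library size alone gave 0 and 7. E2f1, an activating factor, held 18.5 and 14.6, 11.1 and 7.54, and 3.23 and 2.76 CPM in basal libraries at the 3 stages, and 19.4 and 17.1, 23.6 and 9.91, and 40.2 and 33.2 CPM in luminal ones, and its lactation changes differed by 2.76 ± 0.47 (adjusted p = 0.000683). Rbl2, the pocket protein p130 of resting cells, rose in lactating against virgin basal cells by 0.72 ± 0.13 (adjusted p = 0.000589), to 60.4 and 61.2 CPM against 35.1 and 38.7 CPM, and was also higher in lactating than in virgin luminal cells (0.84 ± 0.13, adjusted p = 0.000131), although -0.52 under library size alone.

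Genes of mitosis were counted beside the members. Of 25, 0 rose and 2 fell in pregnant against virgin basal cells, with a median of -0.30 (0 and 3 at an unadjusted p below 0.05, and 0 higher by DESeq2). Of all genes, 15.6% rose and 14.4% fell there. All 25 fell in lactating against virgin basal cells, beside 23.7% of all genes, with a median of -2.29. In lactating against pregnant luminal cells 22 rose and 0 fell, beside 23.7% and 24.6% of all genes, with a median of 1.29. At an unadjusted p below 0.05 the luminal counts were 23 and 0, DESeq2 called 0 lower, and library size alone gave 5 and 1 with a median of 0.43. The proliferation gene Mki67 held 47.8 and 48.8 CPM in virgin, 46.8 and 38.9 CPM in pregnant and 22.5 and 14.8 CPM in lactating basal libraries, and 62.8 and 66.6, 80.0 and 55.5, and 358 and 318 CPM in luminal ones. Its luminal rise at lactation was 2.32 ± 0.19 (adjusted p = 1.26e-06), still 1.45 under library size alone, and its change in lactating against virgin basal cells was -1.37 ± 0.20 (adjusted p = 0.000133).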

How the data were processed

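The deposited table holds raw read counts per Entrez gene for 12 libraries, with a gene length. Of the authors' processing, the submitters' processing notes list featureCounts, Subread 1.4.4 and CASAVA 1.8.2 as tools and mm10 and GRCm38 as builds, without roles. Whether counting used strand, and how reads with several positions were treated, was not given in the sources used here. The 12 files of single libraries held the same counts as the table, with 0 differing. Symbols and promoter windows came from RefSeq tables of GRCm38.p6, which matched 25275 of 27179 identifiers. The 1904 others, with 0.54% to 1.37% of counts, stayed in the tests. Exon overlaps came from GENCODE gene models.

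Counts were filtered (filterByExpr, minimum count 10), scaled by TMM and fitted with edgeR 4.0.16 in R 4.3.3, as 1 quasi-likelihood fit of 6 group means over 12 libraries, with Benjamini-Hochberg adjustment over 15969 genes. The 6 groups share 1 estimate of the spread. Each SE was the absolute log2 change divided by the root of its F value. CPM levels used the TMM scaling, and genes were compared with each other only per kilobase. The series design gives 2 mice a stage, and p-values measure the spread between these libraries. In data simulated for luminal lactating against virgin cells over 15414 genes, the fit recovered 76% of 2-fold and 91% of 4-fold changes, with 8 false among 175 calls. Only 200 genes were changed there, and the milk protein shift between the real groups was left out. The simulation could therefore not test how scaling affects the luminal calls.

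Alternatives were DESeq2 1.42.0 (Wald test, or its size factors in edgeR), library size alone or without milk protein genes, no filter, fits within a cell type or stage, a replicate block, subtraction of a luminal carry-over and leaving out each library. The labels number the libraries of each group. Deviations of same-numbered basal and luminal libraries correlated at 0.231 (virgin), 0.433 (pregnant) and 0.251 (lactating) over 4634 genes, against -0.377 to 0.192 for other pairs of groups. On this ground, with no label that says so, a shared number was treated as a shared mouse. The replicate block used these pairs in comparisons that involve both cell types. Between stages of a cell type it was a single term for replicate number, shared by different mice, and paired nothing.

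The members and the other gene lists were chosen with earlier results of these data known. In each comparison up to 5 called members each way were to be given first, and from other lists at most 3 called genes each way and Mki67. Tmem258 and Gse1 were named for their overlap with members.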

Additional observations from a re-analysis of the deposited data

Results flagged for a closer look

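The luminal and the basal change differed for 29 members between pregnancy and lactation, by the test of the difference itself (luminal minus basal, log2 scale, edgeR adjusted p below 0.05). All 29 differences were positive. The 6 largest were Rrm2 at 3.66, Tk1 at 3.56, Pole at 3.13, Mcm2 at 2.84, Mcm5 at 2.83 and Uhrf1 at 2.71. On the TMM scale the 2 cell types' changes had opposite signs for each of these genes, with luminal Mcm5 not called. Under library size alone luminal Mcm2 and Mcm5 were at -0.18 and -0.35, the sign of the basal change. They were followed by Mcm6 at 2.60, Cdc45 at 2.44, Mcm3 at 2.40, Fen1 at 2.39, Gins1 at 2.27, Tyms at 2.26, Mcm10 at 2.12 and Lig1 at 1.97. Smaller differences were found for Orc1 at 1.90, Rrm1 at 1.81, Rpa2 at 1.66, Rfc4 at 1.66, Pola2 at 1.66, Pold2 at 1.55, Prim1 at 1.5 and Pola1 at 1.24. The lowest were Cdt1 at 1.19, Gins2 at 1.08, Rfc5 at 0.91, Pold1 at 0.80, Pold3 at 0.67, Pcna at 0.61 and Rfc1 at 0.47. Library size alone, the scaling most moved by milk protein reads, left 15 differences called above 0. Apart from that scaling, Pcna, Rfc1, Pold1, Gins2 and Orc1 were the members that lost the call under another alternative.

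The change in pregnancy differed between the cell types for 3 members. The difference, luminal minus basal, was 0.88 for Pold3 and 0.68 for Gins4, which rose in luminal cells and had basal changes of -0.47 and -0.07, the second not called. It was -0.77 for Rpa3, which fell in luminal cells (-0.61) and had an uncalled basal change of 0.17. The cause of these differences was not tested.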

How the results depend on the processing

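Library size alone, which counts milk protein reads in full, moved the luminal comparisons. Member counts (higher and lower) became 0 and 32 for luminal pregnant against virgin, 2 and 10 for lactating against pregnant, 2 and 36 for lactating against virgin, 10 higher for basal against luminal in pregnancy, 8 and 21 in lactation, and 1 and 4 and 15 and 4 for the luminal minus basal change in pregnancy and at lactation. Without milk protein genes in the library size they were 23 lower, 15 and 1, and 4 and 11 in the 3 luminal comparisons and 2 higher for basal against luminal in lactation. A fit within the virgin stage gave 5 higher in basal cells. The replicate block pairs basal and luminal libraries only in comparisons that involve both cell types. With it, 10 were higher in basal than luminal pregnant cells and 8 higher and 4 lower for the change in pregnancy. It moved no other member count by over 1.5 times.

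Leaving out 1 library at a time gave, for higher and lower members, 2 to 5 and 4 to 30 in luminal pregnant against virgin, 14 to 37 and 0 to 2 in lactating against pregnant and 8 to 19 and 2 to 6 in lactating against virgin cells. The basal ranges were 0 to 0 and 5 to 21, 1 to 1 and 14 to 24, and 1 to 1 and 28 to 33. Basal against luminal ranged over 2 to 5 and 5 to 16 in virgin, 2 to 14 and 9 to 26 in pregnant and 1 to 1 and 32 to 36 in lactating mice. The luminal minus basal change ranged over 1 to 11 and 0 to 12 in pregnancy and 24 to 37 and 0 to 0 at lactation.

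Signs of called genes turned mostly under library size alone, where the values (log2) were, in luminal pregnant against virgin cells, Rfc1 -0.39 and Pold3 -0.08. Also, in luminal lactating against pregnant cells, Mcm7 -0.76, Pola1 -0.67, Pcna -0.54, Rfc2 -0.53, Gins4 -0.49, Pold1 -0.31, Pola2 -0.25, Prim1 and Pold3 -0.21, Mcm2 -0.18, Rfc1 -0.17, Lig1 -0.14, Mcm4 and Gins2 -0.13, Rfc5 -0.10 and Tyms -0.05. Also, in luminal lactating against virgin cells, Rfc2 -1.35, Pole2 -1.28, Mcm2 -1.21, Lig1 -1.20, Mcm6 -1.18, Tk1 -1.14, Mcm5 and Gins2 -1.04, Cdc6 -1.01, Prim1 -0.95, Tyms -0.94, Rrm1 -0.85, Gins3 -0.83, Rfc5 -0.80, Rfc4 and Rpa2 -0.73, Pole and Mcm4 -0.68, Rpa1 and Pold2 -0.65, Mcm10 -0.61, Rfc1 -0.56, Orc1 -0.51, Uhrf1 -0.49, Gins1 -0.43, Gins4 -0.37 and Pold3 -0.30. Also, in basal against luminal lactating cells, Rfc3 0.18, Prim2 0.22, Rfc2 0.23, Rfc1 0.30, Pold1 0.56, Mcm4 0.64, Orc6 0.77, Dut 0.85 and Pcna 0.95. Also, for the luminal minus basal change at lactation, Gins4 -0.66, Rfc1 -0.35, Pcna -0.21, Pold3 -0.14 and Pold1 -0.01. Others that turned were Rfc2 at -0.47 in luminal lactating against virgin cells without milk protein genes in the library size, Cdt1 in luminal lactating against pregnant cells (-0.45 to 0.44 over the left-out libraries, 0.44 without luminal pregnant replicate 1), Mcm3 for the luminal minus basal change in pregnancy (-0.72 to 0.78, -0.72 without the same library) and Mcm4 in luminal pregnant against virgin cells (-0.72 to 0.37, 0.37 without luminal pregnant replicate 2). Over single genes and all alternatives, 8599 values kept their side of the threshold, 374 lost and 338 gained the call, and 63 with a call on either side turned sign. Of the 8599, 202 were uncalled values that turned sign, 44 of them under library size alone, such as luminal Mcm5 and Mcm6 at -0.35 and -0.25 in lactating against pregnant cells. Apart from scaling, causes were not tested. Depth limits Gins3 and Gins1 most, with as few as 14 and 15 counts in a library, the lowest among the members.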
